A study of Homo sapiens with 18 samples.

Results

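The androgen program that remained in C4-2 cells after depletion of the lysine demethylases KDM1A and KDM7A was measured by RNA Seq, by comparing 3 libraries with siRNA against both genes and the androgen derivative R1881 (1 nm, 72 h) with 3 libraries with scrambled siRNA (siScr) and vehicle. These 6 libraries of the 18 in the series were chosen by their titles, and all genes with sufficient counts were tested. C4-2 is an androgen-independent derivative of LNCaP, a prostate cancer cell line that responds to androgens. All cells were kept in medium with hormone-depleted serum, which the labels call charcoal-stripped and the methods of the study call dialysed. The siScr cells with R1881 (3 C4-2 libraries, 1 nm, 72 h) and the 9 LNCaP libraries of the same 3 treatments served for comparison. Each knockdown used a pool of siRNAs for each gene, and no library had KDM1A or KDM7A depleted alone. Libraries with both genes depleted and vehicle were not analysed here. The contrast of dual knockdown and R1881 against siScr and vehicle therefore holds the hormone and the siRNA together, and the parts of the 2 in it cannot be told apart. The methods of the study name DMSO as the vehicle of these libraries and ethanol as the vehicle of R1881 in culture. Nothing in the labels says whether the 3 libraries of a group came from separate cultures, so p-values measure the spread between these libraries.

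Androgens act on transcription from enhancers and promoters. In luminal prostate cells they switch on secreted proteases, lipid and polyamine metabolism, transporters and glycosylation enzymes, and they lower a further set of genes. KDM1A and KDM7A remove methyl groups from lysines of histone tails, by different chemistry and at partly different lysines. Both have been described as coregulators of androgen-dependent transcription. The contrast shows which genes stood above or below vehicle when both were depleted and androgen was present.

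Total counts of the 6 libraries were 18185805, 16596790 and 3182604 with vehicle and 19732350, 18642208 and 16611431 under dual knockdown. Vehicle replicate 3 was thus the shallowest library of the series. It also stood apart in content. In this library 184 genes, 150 of them pseudogenes, had at least 10 CPM and at least 10 times the level of both other vehicle libraries, and 57 of the 184 were among the genes called lower under dual knockdown (1 when this library was left out). CPM is a count scaled to the depth of its library with edgeR's effective library sizes. The cell line field of the 3 vehicle libraries names LNCaP where their titles name C4-2. Of 584 genes that separated C4-2 from LNCaP in the siScr libraries with R1881, 549, 545 and 536 lay nearer the C4-2 level in the 3 vehicle libraries, against 47 to 57 in the LNCaP vehicle libraries. Mitochondrial genes held 8.11%, 9.08% and 7.10% of counts with vehicle and 6.49%, 6.82% and 6.39% under dual knockdown, and the part of this difference in the results was not tested. In bulk RNA, fewer cells that express a gene and less RNA of it per cell cannot be told apart.

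All 8 luminal prostate markers were detected in every library, with a summed level of 2541 to 2786 CPM with vehicle and 3766 to 4018 CPM under dual knockdown. The 8 include KLK3, which androgen raises. The luminal keratin KRT8 was 303, 302 and 238 CPM with vehicle and 624, 475 and 502 CPM under dual knockdown. Of the basal markers, KRT5 had no count in the 6 libraries, and the 4 together summed to at most 0.4 CPM with vehicle and to 1.93 to 3.09 CPM under dual knockdown. Of 8 neuroendocrine markers, CHGB and INSM1 had no count and ENO2, which many cell types express, gave most of a sum of 20.1 to 22.7 CPM with vehicle and 14.1 to 16.8 CPM under dual knockdown. The 6 fibroblast markers summed to 31.8 to 40.0 CPM with vehicle and 29.2 to 37.5 CPM under dual knockdown, nearly all of it COL1A1, with DCN at 0. The 4 endothelial markers (5.60 to 9.37 against 7.69 to 10.1 CPM, PECAM1 at 0) and the 5 leukocyte markers (2.95 to 3.62 against 1.71 to 1.76 CPM) were low in both groups. PTPRC, the general leukocyte marker, was 3.21, 2.34 and 1.77 CPM with vehicle and at most 0.11 CPM under dual knockdown. It was also low in siScr cells with R1881, at 0, 0.0564 and 0.184 CPM. The leukocyte marker LYZ rose instead, from 0, 0.171 and 0.295 CPM with vehicle to 1.36, 1.38 and 1.63 CPM under dual knockdown. The part of these markers in the results was not tested.

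Both targets of the siRNA were reduced. KDM1A (ENSG00000004487, chr1:23019448-23083689 in GRCh38) was 132, 123 and 132 CPM in the vehicle libraries and 14.5, 20 and 14.7 CPM under dual knockdown, which gave a log2FC of −2.97 (SE 0.11 with an adjusted p of 5.03e-11). KDM7A (ENSG00000006459, chr7:140084746-140177035) was 50.7, 56.6 and 53.1 CPM with vehicle and 17.8, 24 and 21.7 CPM under dual knockdown, which gave a log2FC of −1.34 (SE 0.11 with an adjusted p of 2.92e-07). In both genes the 3 knockdown libraries lay below the 3 vehicle libraries. KDM7A was itself higher with R1881 in siScr cells, at 111, 118 and 132 CPM, so that its knockdown libraries held 17.6% of the siScr level with R1881 but a larger share of the vehicle level. Of their relatives, KDM1B (57.1 CPM with vehicle and 58.8 CPM under dual knockdown, on average) and PHF8 (105 and 167 CPM, log2FC 0.66, adjusted p = 8.5e-06) stayed under the fold change threshold. RCOR2, a KDM1A partner of the CoREST complex, was called lower at 3.72 and 1.4 CPM, and was also lower with R1881 in siScr cells (1.52 CPM). In all, 3 of the 12 targets and relatives were called lower and none higher, beside 5.59% and 5.78% of all genes. The 3 include the 2 siRNA targets, and RCOR2 was the only relative called.

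With dual knockdown and R1881, 981 of 16965 genes tested in C4-2 were called higher than with vehicle (5.78%) and 948 lower (5.59%). Genes were called when the adjusted p of edgeR's quasi-likelihood test over all genes was under 0.05 and the log2FC, the fold change on the log2 scale, was 1 or more in size. Of the called genes, 769 of those higher and 616 of those lower were protein coding, and 234 and 239 averaged under 1 CPM. In siScr cells, R1881 raised 728 genes (4.29%) and lowered 811 (4.78%). Of the 728 genes raised by R1881 in siScr cells, 551 (75.7%) also stood above vehicle under dual knockdown, and of the 811 lowered genes, 489 (60.3%) also stood below it. By adjusted p alone, 21.5% of all genes were higher and 19.0% lower under dual knockdown, and 17.1% and 15.7% with R1881 in siScr cells. These 2 contrasts use the same vehicle libraries, so errors in those libraries enter both counts. Seen from the other side, the 551 made up 56.2% of the genes called higher under dual knockdown and the 489 made up 51.6% of those called lower. Of the 177 induced genes that were no longer called, 162 still had a log2FC above 0 and 85 of these had an adjusted p under 0.05, so that they missed the fold change threshold alone. Of the 322 repressed genes no longer called, 276 had a log2FC below 0 and 104 an adjusted p under 0.05. Calls in the opposite direction were made for 2 of the induced and 6 of the repressed genes.

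A list that shares no library with the C4-2 contrast was taken from LNCaP, where R1881 raised 974 genes (5.68% of 17162) and lowered 1136 (6.62%) in siScr cells. Of the 974 genes, 826 had enough counts in C4-2 to be tested. Under dual knockdown, 413 of them were called higher than vehicle (42.4% of the 974) and 19 lower, beside 5.78% and 5.59% of all genes. In siScr C4-2 cells with R1881 the counts were 390 and 15, beside 4.29% and 4.78% of all genes. The median log2FC of the 826 against vehicle was 1.04 under dual knockdown and 0.99 in siScr cells, where the median of all genes was −0.01 and −0.02. A gene can pass the filter on low counts through the group in which it is high, so the 586 induced genes with at least 1 CPM in the C4-2 vehicle libraries are given apart. Of these, 263 (44.9%) were called higher under dual knockdown and 15 lower, with a median log2FC of 0.90.

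Repression was followed in the same way. Of the 1136 genes lowered in LNCaP, 904 were tested in C4-2. Under dual knockdown 308 of them were called lower (27.1% of the 1136) and 14 higher, beside 5.59% and 5.78% of all genes. The counts in siScr C4-2 cells were 326 and 7, beside 4.78% and 4.29% of all genes. The medians were −0.77 under dual knockdown and −0.82 in siScr cells. The called share was larger where the LNCaP response was larger. Among the induced genes with a LNCaP log2FC of 1 to 2, 195 of 596 (32.7%) were called higher in C4-2 under dual knockdown, among those with 2 to 3 it was 95 of 181 (52.5%), and among those above 3 it was 123 of 197 (62.4%). For repression the counts were 186 of 852 (21.8%), 69 of 172 (40.1%) and 53 of 112 (47.3%). These shares are of all genes of the LNCaP lists, whether or not they were tested in C4-2. Of all genes tested in C4-2, 5.78% were called higher and 5.59% lower under dual knockdown.

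**Figure D1:**
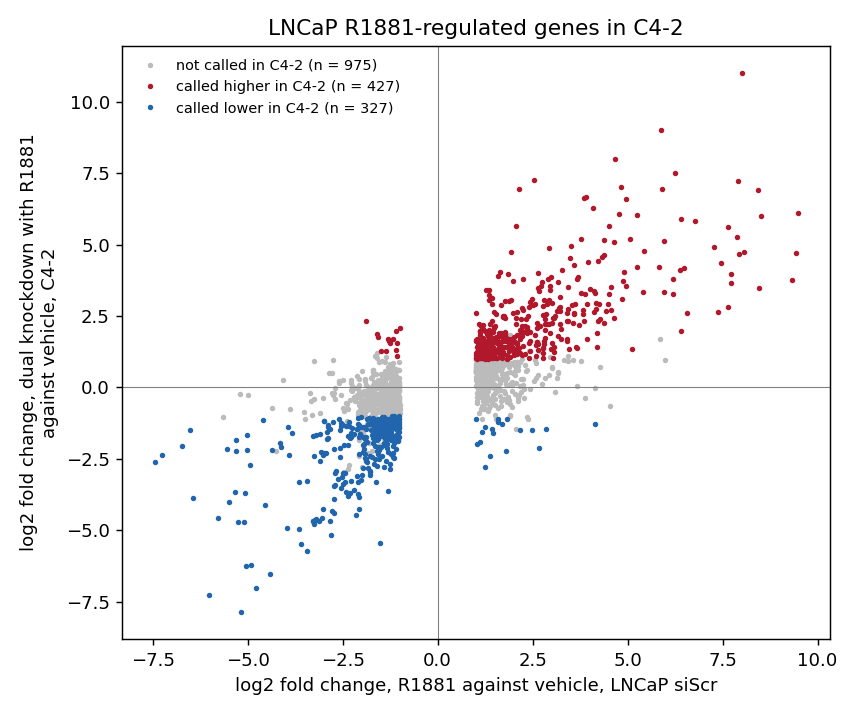
Genes that R1881 raised or lowered in LNCaP siScr cells and that were tested in C4-2 (1729 genes, with 1 more tested gene left out under the rule for named genes). The horizontal axis is their log2FC in LNCaP and the vertical axis their log2FC from vehicle to dual knockdown with R1881 in C4-2; 427 genes called higher are red, 327 called lower are blue, and 413 of the red and 308 of the blue points lie on the side of their LNCaP direction.

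Set directly against siScr cells with R1881, dual knockdown left the medians of the LNCaP lists near 0. By the same rule as above, 424 genes were called higher (2.50%) and 245 lower (1.44%) under dual knockdown than in siScr cells with R1881. Of the 826 induced genes 51 were called higher and 46 lower, and of the 904 repressed genes 65 and 25. Since many differences of known androgen genes were smaller than the fold change threshold, differences are also given at an adjusted p under 0.05 alone, which 12.7% of all genes passed in the higher and 10.8% in the lower direction. By that rule 170 of the induced genes were higher and 154 lower, with a median log2FC of −0.01. Of the repressed genes 141 were higher and 66 lower, with a median of 0.07, beside 0.01 for all genes. In these lists, then, the median level under dual knockdown was within 0.1 of the siScr level with R1881 on the log2 scale, while single genes differed in both directions.

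The 3 lists of well-known androgen-induced genes, 50 in all, were followed by role. Of these, 48 were tested, 39 were called higher than vehicle under dual knockdown and none lower (5.78% and 5.59% of all genes). In siScr cells with R1881 the count called higher was 40, beside 4.29% of all genes. Their median log2FC was 2.02 under dual knockdown and 2.08 in siScr cells. In the direct comparison 11 were higher and 16 lower with knockdown at an adjusted p under 0.05 (12.7% and 10.8% of all genes). Of the 16, 3 differed by a log2FC beyond 1. In the plot of gene lists, both conditions lie far above vehicle for most of these genes.

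KLK3, which encodes prostate-specific antigen, and KLK2, the related kallikrein that cleaves it, lie beside each other on chromosome 19 (chr19:50854915-50860764 and chr19:50861568-50880567, both plus strand, with the RefSeq start of KLK2 inside its GENCODE span). KLK3 was 21.7, 24.3 and 18.9 CPM with vehicle and 383, 298 and 300.3 CPM under dual knockdown, which gave a log2FC of 3.88 (SE 0.12 with an adjusted p of 7.13e-12). KLK2 was 27, 27.5 and 22.1 CPM with vehicle and 344, 284 and 299.8 CPM under dual knockdown, which gave a log2FC of 3.56 (SE 0.1 with an adjusted p of 3.58e-12). For both, each knockdown library lay more than 10 times above the vehicle libraries. In siScr cells with R1881, KLK3 was 393, 379 and 418 CPM and KLK2 was 254, 251 and 266 CPM. KLK3 thus held 82.5% of the siScr level (log2FC −0.28, adjusted p = 0.0599, groups overlapping), and KLK2 held 120.3% (log2FC 0.27, adjusted p = 0.0372, no overlap). Neither direct result was firm to 1 library. KLK3 passed at 0.00196 without knockdown replicate 1 and at 0.0309 without vehicle replicate 3, and KLK2 missed at 0.0504 to 0.142 in 6 of the 9 fits that left out a library.

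The promoters of 4 induced genes are shown because they carry a match to the androgen response element. They are the 250 bases before the RefSeq start in GRCh38.p14, 5′ to 3′ on the strand of the gene. Capitals mark a window of 15 bases that matches an inverted pair of hexamers (AGAACA, 3 free bases, TGTTCT) with at most 3 mismatches over the 12 fixed bases, and any exact AGAACA or TGTTCT. The KLK3 promoter (chr19:50854665-50854914, plus strand) has such a window 170 bases before the start with 2 mismatches, and the KLK2 promoter (chr19:50873189-50873438, plus strand) has it 176 bases before with 3. FKBP5 (chr6:35728584-35728833, minus strand) and TRPM8 (chr2:233917123-233917372, plus strand) have windows 219 and 194 bases before the start with 3 mismatches each.
KLK3: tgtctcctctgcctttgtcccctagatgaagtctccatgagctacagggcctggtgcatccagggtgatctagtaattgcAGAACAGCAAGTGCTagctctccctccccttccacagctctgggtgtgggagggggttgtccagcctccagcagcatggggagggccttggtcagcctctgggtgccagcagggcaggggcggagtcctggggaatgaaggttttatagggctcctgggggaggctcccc
KLK2: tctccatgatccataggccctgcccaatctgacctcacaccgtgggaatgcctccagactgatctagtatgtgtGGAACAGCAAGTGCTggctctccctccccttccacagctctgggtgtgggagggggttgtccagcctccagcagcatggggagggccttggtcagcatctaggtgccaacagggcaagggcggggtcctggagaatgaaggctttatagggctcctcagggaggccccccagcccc
FKBP5: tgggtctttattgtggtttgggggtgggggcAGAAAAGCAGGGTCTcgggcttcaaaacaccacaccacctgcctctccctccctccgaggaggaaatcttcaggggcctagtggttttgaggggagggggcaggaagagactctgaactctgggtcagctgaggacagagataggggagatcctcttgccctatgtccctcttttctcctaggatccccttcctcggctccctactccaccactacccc
TRPM8: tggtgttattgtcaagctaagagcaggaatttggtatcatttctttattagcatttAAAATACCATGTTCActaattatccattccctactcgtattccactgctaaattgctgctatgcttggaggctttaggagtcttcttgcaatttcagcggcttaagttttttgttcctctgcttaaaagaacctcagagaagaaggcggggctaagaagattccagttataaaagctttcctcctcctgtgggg
A match of this kind is common and is a description only. Over the 300 bases from 250 before to 50 after the start, 11.0% of 27305 promoters held the pair with at most 3 mismatches, 1.44% with at most 2, and 14.9% held an exact hexamer on either strand. Of the LNCaP-induced genes 592 had a promoter in the table, and 8.61% held the pair and 11.3% the hexamer. Of 533 LNCaP-repressed genes 5.63% and 13.1% held them. Pairs were found in 2 of 8 promoters of the secretory list, 2 of 14 of the transcription and signalling list, none of 17 of the transport and metabolism list and none of 10 of the repressed list, and hexamers in 2, 2, 0 and 1 of these. Among the genes most induced in LNCaP 1 of 5 promoters held the hexamer, among those most repressed 3 of 4, and neither set held a pair.

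Of 10 genes for secreted or membrane proteases and secretory products, 5 of 8 tested were called higher and none lower (5.78% and 5.59% of all genes). TMPRSS2, a membrane serine protease whose promoter drives ERG fusions in many prostate cancers, was 66.3, 82 and 65.8 CPM with vehicle and 776, 697 and 667 CPM under dual knockdown (log2FC 3.31, SE 0.1, adjusted p = 5.85e-12). AZGP1, a secreted zinc-binding glycoprotein, was 7.55, 7.03 and 9.14 CPM with vehicle, 89.6, 86.1 and 87.4 CPM in siScr cells with R1881 and 56.4, 50.7 and 53.1 CPM under dual knockdown. AZGP1 therefore stood well above vehicle (log2FC 2.82, SE 0.1, adjusted p = 4.34e-11) but at 60.9% of the siScr level (adjusted p = 3.78e-05, no overlap). MSMB, a prostatic secretory protein, was low, at 1.71, 1.14 and 1.18 CPM and 3.51, 2.92 and 3.45 CPM (log2FC 1.24, SE 0.28, adjusted p = 0.00276). KLK4 and KLK15 stood above vehicle by a log2FC of 0.96 and 0.50, under the fold change threshold, and ACPP, prostatic acid phosphatase, lay below it with a log2FC of −0.39 (adjusted p = 0.0428). NPY and PIP had too few counts to be tested.

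**Figure D2:**
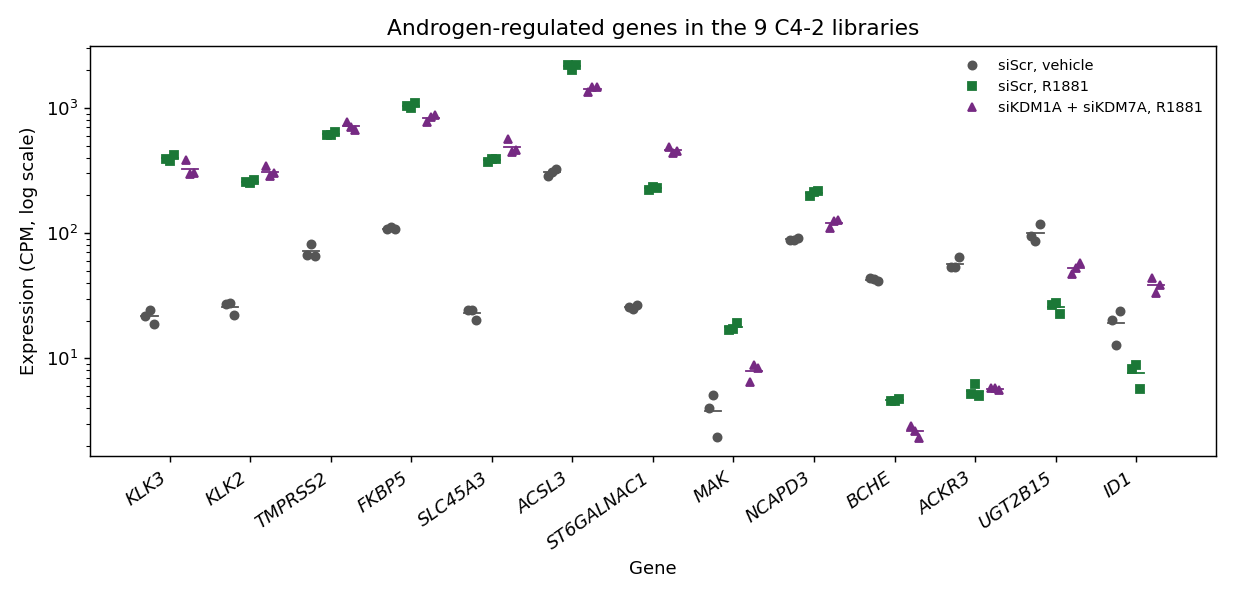
Expression in CPM (log scale) of 13 androgen-regulated genes in the 9 C4-2 libraries, with 1 symbol per library and a line at the mean of 3. In the first 7 genes the knockdown libraries (triangles) lie far above vehicle (circles), as the siScr libraries with R1881 (squares) do; MAK and NCAPD3 lie nearer vehicle, and ID1 lies above vehicle where siScr cells with R1881 lie below it.

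Among 20 genes for transcription and signalling, all 20 were higher than vehicle at an adjusted p under 0.05 (21.5% of all genes). Of these, 19 were called higher (5.78% of all genes). FKBP5, a chaperone of steroid receptors, was 107, 111 and 107 CPM with vehicle and 829.8 CPM on average under dual knockdown (log2FC 2.94, SE 0.08, adjusted p = 1.89e-12). The knockdown libraries were also below the siScr libraries with R1881, with no overlap, at 80.1% of their level (adjusted p = 0.0053). The elongation factor ELL2 and its partner EAF2 overlapped with siScr cells with R1881. ELL2 was 61.5, 65.6 and 56.9 CPM with vehicle, 368, 321 and 346 CPM in siScr cells with R1881 and 318, 359 and 381 CPM under dual knockdown, and EAF2 had a log2FC against vehicle of 2.38. PMEPA1, an inhibitor of TGF-beta signalling, and ZBTB16, a zinc finger factor, stood above vehicle by a log2FC of 3.18 and 1.99.

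A larger loss was measured in 3 genes of this list. SGK1, a kinase that glucocorticoids and androgens induce, was 1.86, 1.2 and 2.06 CPM with vehicle, 13.6, 13.9 and 11.6 CPM in siScr cells with R1881 and 5.39, 6.17 and 6.53 CPM under dual knockdown. It was still called against vehicle (log2FC 1.90, SE 0.21, adjusted p = 4.8e-06), at 46.2% of the siScr level (adjusted p = 0.000228). SNAI2, a zinc finger repressor of E-cadherin, was 0.207, 0.114 and 0 CPM with vehicle, from 6 counts in all, 19.5, 16.4 and 18.9 CPM in siScr cells with R1881 and 8.22, 7.44 and 7.72 CPM under dual knockdown, 42.7% of the siScr level. NCAPD3, a condensin II subunit, was the member that lost its call. It was 87.4, 88.4 and 91.2 CPM with vehicle, 198, 211 and 218 CPM in siScr cells with R1881 and 110.2, 124 and 127 CPM under dual knockdown, so that its log2FC against vehicle was 0.44 (SE 0.079, adjusted p = 0.000459) where siScr cells had 1.23. IGF1R, the receptor of insulin-like growth factor 1, stood at 68.2% of the siScr level and 5.33 times vehicle, and MAF, HPGD and TRPM8 at 67.4%, 69.6% and 74.2% of the siScr level. HERC3 (136%), MPHOSPH9 (145%) and CENPN (119%) were higher under knockdown than in siScr cells with R1881, at adjusted p of 0.00123, 0.000978 and 0.0362. For CENPN this was lost in 5 of the fits without a library (0.0839 to 0.135).

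Of 20 genes for transport and metabolism, 15 were called higher and none lower (5.78% and 5.59% of all genes). SLC45A3, the prostate transporter also known as prostein, was 24.5, 24.2 and 20.4 CPM with vehicle and 562, 442 and 462 CPM under dual knockdown (log2FC 4.38, SE 0.11, adjusted p = 1.21e-12), above the 369.7, 389 and 394 CPM of siScr cells with R1881 (direct adjusted p = 0.0135, and 0.0507 to 0.0677 without any 1 of the siScr libraries with R1881). STEAP4, a metalloreductase, was 0.207, 0.286 and 0 CPM with vehicle and 16.1, 16.6 and 14.8 CPM under dual knockdown (log2FC 6.11, SE 0.27, adjusted p = 2.95e-10). For both genes the knockdown and vehicle libraries did not overlap. ACSL3, which activates long-chain fatty acids, was 285, 307 and 325 CPM with vehicle, 2211, 2021 and 2216 CPM in siScr cells with R1881 and 1327, 1456 and 1467 CPM under dual knockdown, 4.64 times vehicle and 65.9% of the siScr level. MAK, a kinase first described in male germ cells, was 3.98, 5.09 and 2.36 CPM, 16.9, 17.1 and 19.3 CPM and 6.49, 8.76 and 8.35 CPM in the same order, and its log2FC of 0.91 against vehicle fell under the threshold where siScr cells had 2.08. PLPP1, a lipid phosphate phosphatase, went the other way, at 41.6, 39.3 and 41 CPM, 149, 139 and 150 CPM and 306, 259 and 266 CPM, and TMPRSS11E, a serine protease, stood at 177% of the siScr level (adjusted p = 0.000165).

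The polyamine genes of this list moved apart from each other. ODC1, the first enzyme of polyamine synthesis, was 434, 396 and 486 CPM with vehicle and 1170.2, 1059.5 and 1125 CPM under dual knockdown (log2FC 1.35, SE 0.085, adjusted p = 1.65e-08). SMS, spermine synthase, was called higher than vehicle (log2FC 1.19) at 68.7% of the siScr level, and SRM, spermidine synthase, had a log2FC of 0.18 (adjusted p = 0.173). SAT1, which acetylates spermidine and spermine for export and breakdown, was 15.2, 15.3 and 17.1 CPM with vehicle, 145, 134 and 137 CPM in siScr cells with R1881 and 222, 214 and 216 CPM under dual knockdown. SAT1 was thus 14 times vehicle and above every siScr library with R1881 (adjusted p = 2.03e-05 in the direct comparison).

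**Figure D3:**
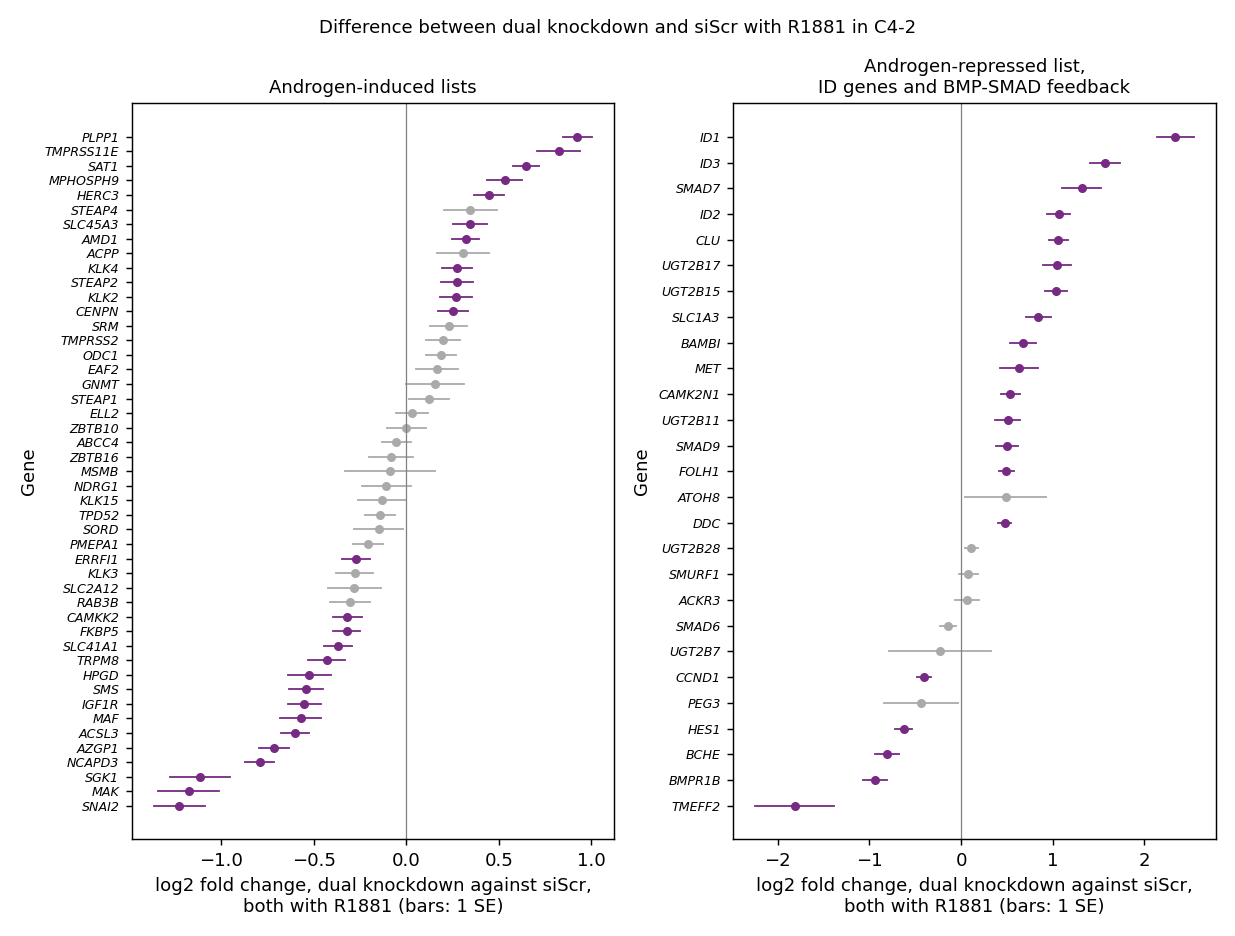
Log2FC of dual knockdown against siScr, both with R1881, for 47 androgen-induced genes (left) and for the androgen-repressed list with the ID genes and BMP-SMAD feedback genes (right). Points are estimates of edgeR, bars are 1 SE and purple marks an adjusted p under 0.05; SNAI2, MAK and SGK1 are lowest on the left, and ID1 and ID3 highest on the right.

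Glycosylation and lipid enzymes stood above vehicle and in part above the siScr level. Of 14 glycosylation enzymes, 4 were called higher and none lower, and 11 passed an adjusted p of 0.05 in the higher direction. Of all genes, 5.78% were called higher and 5.59% lower, and 21.5% passed in the higher direction. The median log2FC of the 14 was 0.86 (0.55 in siScr cells with R1881). ST6GALNAC1, the sialyltransferase that makes the sialyl-Tn antigen, was 25.8, 24.9 and 26.5 CPM with vehicle, 220.4, 232 and 229 CPM in siScr cells with R1881 and 488, 439 and 450 CPM under dual knockdown. It was 17.9 times vehicle and 202% of the siScr level (direct adjusted p = 6.97e-07). UAP1 and PGM3, which act in the hexosamine pathway that makes UDP-GlcNAc, were 136% and 175% of the siScr level (adjusted p = 0.000501 and 3.94e-05), and PGM3 was called against vehicle under dual knockdown (log2FC 1.33) but not in siScr cells (0.52). ST6GAL1 was called higher than vehicle (log2FC 1.16) at 63.7% of the siScr level, and its call against vehicle was lost without vehicle replicate 1 (log2FC 0.98).

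Of 18 genes for cholesterol and fatty acid synthesis, 7 were called higher and none lower (5.78% and 5.59% of all genes). An adjusted p of 0.05 in the higher direction was passed by 17 (21.5% of all genes). The median log2FC of the 18 was 0.81 (0.66 in siScr cells). ELOVL7, an elongase of saturated very-long-chain fatty acids, was 23.2, 23 and 24.2 CPM with vehicle, 121, 113 and 123 CPM in siScr cells with R1881 and 241, 281 and 282 CPM under dual knockdown. HMGCS1, an early enzyme of the mevalonate pathway, was 74.1, 79.7 and 87 CPM, 116, 158 and 125 CPM and 233, 269 and 291 CPM. In both genes the 3 groups did not overlap, and the knockdown level was 225% and 199% of the siScr level. ELOVL5, which elongates polyunsaturated fatty acids, was 4 times vehicle and 70% of the siScr level. SREBF1, a master regulator of lipid synthesis, was near vehicle in siScr cells (log2FC −0.02) and above it under dual knockdown (log2FC 0.69, adjusted p = 8.35e-05, under the fold change threshold). FASN (log2FC 0.89), SCD (1.04), INSIG1 (1.43) and FADS1 (1.02) also stood above vehicle, and the calls of SCD and FADS1 were lost without vehicle replicate 1 (log2FC 0.97 and 0.96).

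The 20 genes listed as androgen-repressed moved in both directions. Of 17 tested, 6 were called lower and 2 higher (5.59% and 5.78% of all genes), with a median log2FC of −0.82. In siScr cells with R1881 8 were called lower and 2 higher (4.78% and 4.29% of all genes), with a median log2FC of −0.42. The 2 genes of the list with the largest fall in siScr cells stayed low. BCHE, butyrylcholinesterase, was 43.6, 42.6 and 41.3 CPM with vehicle and 2.88, 2.64 and 2.32 CPM under dual knockdown (log2FC −4.02, SE 0.12, adjusted p = 5.8e-12), lower also than the 4.54, 4.57 and 4.73 CPM of siScr cells with R1881. ACKR3, a scavenger receptor for the chemokine CXCL12, was 53.9, 53.2 and 64.3 CPM and 5.76, 5.79 and 5.59 CPM (log2FC −3.31, SE 0.12, adjusted p = 4.2e-11), and the direct difference from siScr cells was 0.06 (adjusted p = 0.79). The CaMKII inhibitor CAMK2N1, the decarboxylase DDC and the receptor kinase MET were also called lower, by a log2FC of −2.18, −1.38 and −1.58, each with a smaller fall than in siScr cells (−2.72, −1.86 and −2.21), which for MET was lost in 6 fits without a library (direct adjusted p = 0.0417, then 0.0565 to 0.201). CCND1 had a log2FC of −0.63 under dual knockdown and −0.22 in siScr cells.

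The UGT2B enzymes, which add glucuronic acid to androgens and mark them for excretion, split. UGT2B15 was 94.4, 85.7 and 119 CPM with vehicle, 26.4, 27.5 and 22.6 CPM in siScr cells with R1881 and 47.5, 52.8 and 57.3 CPM under dual knockdown, and UGT2B17 was 31.7, 28 and 36 CPM, 9.62, 7.56 and 6.57 CPM and 14, 17.5 and 17.8 CPM. Both had lost their call against vehicle (log2FC −0.90 and −0.94, where siScr cells had −1.94 and −1.98) and lay between the other groups with no overlap. UGT2B7 was low in all groups, at 1.86, 1.54 and 0.885 CPM, 0.164, 0.79 and 0.43 CPM and 0.576, 0.386 and 0.188 CPM, and stayed called lower (log2FC −1.98, adjusted p = 0.00592, and −1.75 in siScr cells), with a direct difference of −0.23 (adjusted p = 0.813). UGT2B11 and UGT2B28 were higher, not lower, with R1881 in these cells. UGT2B28 was 11.6, 11.5 and 10.9 CPM with vehicle and 105, 112 and 113 CPM under dual knockdown (log2FC 3.26, SE 0.085, adjusted p = 1.32e-12), and UGT2B11 had a log2FC of 2.68. These genes are close paralogs, so the split of reads among them is uncertain. FOLH1 (prostate-specific membrane antigen), CLU (clusterin) and SLC1A3 (a glutamate transporter), also on this list, stood above vehicle by a log2FC of 0.26, 0.76 and 0.44, under the threshold, and above siScr cells with R1881 by 0.49, 1.06 and 0.84 (adjusted p = 0.000747, 8.23e-06 and 0.000475). OPRK1, CDH2 and LRRN1 had too few counts to be tested.

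None of the 13 tested genes of a list with pioneer factors and coregulators of androgen action was called under dual knockdown, and 2 were higher and 7 lower at an adjusted p under 0.05, where 21.5% and 19.0% of all genes were. The pioneer factor FOXA1 was 327, 336 and 365 CPM with vehicle and 379, 352 and 340.4 CPM under dual knockdown (log2FC 0.06, adjusted p = 0.533). GATA2, a second pioneer factor, had a log2FC of −0.88 where siScr cells had −1.19, a call in siScr cells alone. Of the coactivators, NCOA1 was above vehicle (log2FC 0.58) and NCOA2 (−0.40) and NCOA3 (−0.67) below it, and the corepressor NCOR1 was above it (0.73).

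**Figure D4:**
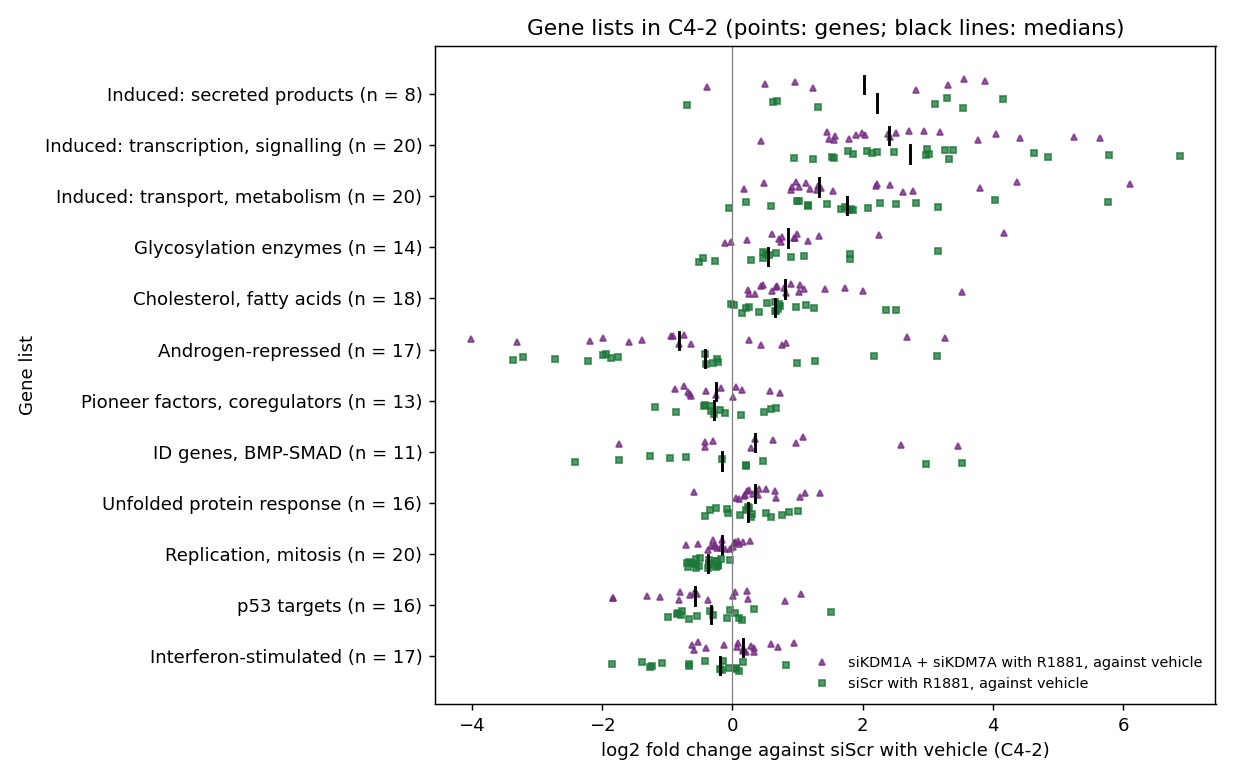
Log2FC against siScr with vehicle in C4-2 for 12 gene lists, under dual knockdown with R1881 (triangles) and in siScr cells with R1881 (squares), with 1 point per tested gene and a black line at each median. The 3 induced lists lie to the right of 0 in both conditions, with medians of 2.03, 2.40 and 1.33 under dual knockdown, and the repressed list spreads to both sides.

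The ID genes, inhibitors of helix-loop-helix factors that BMP signalling induces, stood far above siScr cells with R1881. ID1 was 20.4, 12.7 and 23.9 CPM with vehicle, 8.14, 8.85 and 5.71 CPM in siScr cells with R1881 and 43.5, 33.1 and 38.5 CPM under dual knockdown. Its log2FC against vehicle was 1.08 (adjusted p = 0.000492), where siScr cells had −1.26, and the call was lost without vehicle replicate 2 (0.83) or knockdown replicate 1 (0.98). ID3 was 22.7, 16.3 and 24.8 CPM, 10.5, 13 and 8.59 CPM and 35.8, 29 and 31 CPM in the same order. ID2 stood at 209% of the siScr level. SMAD7, a feedback inhibitor of the same pathway, was 5.9, 5.89 and 7.96 CPM, 1.42, 2.31 and 1.96 CPM and 4.76, 4.79 and 4.65 CPM, so that its repression in siScr cells (log2FC −1.74) was −0.42 under dual knockdown (adjusted p = 0.112). BAMBI, a decoy receptor, stayed called lower (log2FC −1.73), and BMPR1B, a BMP receptor, stayed called higher (2.59), each with a smaller change than in siScr cells (−2.41 and 3.52). Over the list, 3 of 11 tested genes were called higher and 1 lower against vehicle, beside 5.78% and 5.59% of all genes, and in siScr cells 2 and 3, beside 4.29% and 4.78%.

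The largest rises against vehicle were in genes without any or nearly any count in the vehicle libraries. SLC2A3, the glucose transporter GLUT3, had no count with vehicle and 18.3, 13.4 and 15.7 CPM under dual knockdown, at least 213-fold higher with a floor of 3 counts over the group. PNLIPRP3 and PNLIP, a lipase-related protein and pancreatic lipase, were at least 132-fold and 53.7-fold higher, and F13A1, a subunit of coagulation factor XIII, at least 52.9-fold higher. TMEM100 and LINC00160 were at least 15.6-fold and 15.4-fold higher. SLC26A3, an anion exchanger, rose from 1 count to 6.07, 6.34 and 5.34 CPM, a ratio of 239 (95% interval 42.6 to 9469, counting error only). These genes differed in how they compared with siScr cells. SLC2A3, PNLIPRP3 and AKAP12, a kinase scaffold protein with 0.569, 0.343 and 0.295 CPM with vehicle and 109.7, 113 and 127 CPM under dual knockdown, stood at 132%, 99.4% and 100.1% of the siScr level with R1881. SLC26A3 and TMEM100 stood at 27.2% and 31.4%, and F13A1 at 475%.

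The 8 largest falls against vehicle were taken among called genes whose knockdown and vehicle libraries did not overlap, so these falls are a description only. Of these, 4 did not rest on vehicle replicate 3. UNC13C, a synaptic vesicle priming factor, was 10.6, 11 and 9.44 CPM with vehicle and 0.209, 0.22 and 0.251 CPM under dual knockdown (log2FC −5.48, SE 0.26, adjusted p = 5.52e-10), lower also than the 0.984, 0.79 and 0.798 CPM of siScr cells. CCDC83 was 8.18, 8.23 and 5.01 CPM and 0.157, 0 and 0.251 CPM (log2FC −5.73, SE 0.46, adjusted p = 1.95e-07). CTNNA3, an alpha-catenin, was 4.14, 3.94 and 4.13 CPM and 0.157, 0.165 and 0.126 CPM, overlapping with siScr cells with R1881, and AC126177.6 had a log2FC of −4.59. The other 4, MTRNR2L12, EIF3CL, HIST2H2AA3 and EEF1A1P19, rested on vehicle replicate 3 for most of their size, and EIF3CL alone kept its call without it. MTRNR2L12, for example, was 1.14, 1.37 and 319 CPM in the 3 vehicle libraries, and its log2FC of −7.01 was −0.77 (adjusted p = 0.11) without that library. The values without it were −1.51 for EIF3CL (adjusted p = 0.0142), −0.90 for HIST2H2AA3 (adjusted p = 0.213) and −0.80 for EEF1A1P19 (adjusted p = 0.0812). All 4 have near-identical copies in the genome, so that their counts are uncertain.

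The named genes that R1881 moved most in LNCaP kept their direction in C4-2 under dual knockdown, with 1 pseudogene as the exception. They were ranked by their LNCaP log2FC among genes with a mean of at least 1 CPM over the 9 C4-2 libraries. The 5 induced genes were under 1 CPM in every vehicle library, so they passed that limit only through libraries with R1881. That limit favoured a rise over vehicle, and the rises of these 5 are a description only. Of the 5 most induced under that limit, STEAP4 was described above. CCDC141 was 0.362, 0.572 and 0.295 CPM with vehicle and 10, 12.8 and 12.6 CPM under dual knockdown (log2FC 4.70, SE 0.24, adjusted p = 1.61e-09). SLC38A4, an amino acid transporter, was 0.0517, 0.171 and 0 CPM and 11.5, 14.2 and 12.8 CPM, and PLA2G4E, a phospholipase, 0.207, 0.343 and 0.295 CPM and 3.67, 2.2 and 3.45 CPM. ORM1, an acute phase protein, rose from 1 count to 2.88, 1.54 and 1.76 CPM, a ratio of 83.9 (95% interval 14.8 to 3345). CCDC141 overlapped with siScr cells with R1881, and SLC38A4, ORM1 and PLA2G4E stood at 56.3%, 35.5% and 33.8% of it. Of the 5 most repressed under the same limit, CBLN2, a synaptic organiser, was 62.8, 52.9 and 71.7 CPM with vehicle and 5.08, 3.86 and 3.83 CPM under dual knockdown (log2FC −3.85, SE 0.15, adjusted p = 7.41e-11). SI, sucrase-isomaltase, was 15.4, 15.2 and 14.2 CPM, 1.53, 1.07 and 1.35 CPM in siScr cells with R1881 and 2.57, 3.09 and 3.08 CPM under dual knockdown, so that it stayed low at 219.6% of the siScr level. SLITRK3 and KCNJ3, a neuronal adhesion protein and a potassium channel, were called lower by a log2FC of −2.06 and −1.47. The fifth, MTCO3P12, a mitochondrial pseudogene, rested on vehicle replicate 3 with 0.31, 1.2 and 369 CPM in the 3 vehicle libraries, and its log2FC was −0.05 (adjusted p = 0.947) without it.

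A few inductions were lost almost completely. EPHA7, an ephrin receptor, was 15.2, 16.5 and 17.7 CPM with vehicle, 55.4, 52.1 and 54.9 CPM in siScr cells with R1881 and 16.5, 18.2 and 18 CPM under dual knockdown. The knockdown and vehicle libraries overlapped (log2FC 0.12, adjusted p = 0.391) and both lay below the siScr libraries with R1881. ADRB1, the beta-1 adrenergic receptor, was 1.86, 1.77 and 2.65 CPM, 10.4, 8.46 and 7.86 CPM and 2.46, 2.81 and 3.08 CPM in the same order (log2FC against vehicle 0.51, adjusted p = 0.0797). DIRAS2, a small GTPase, was 0.0517, 0.343 and 0.59 CPM, 1.91, 2.37 and 2.33 CPM and 0.733, 0.331 and 0.565 CPM. The remaining genes of this set were KDM7A, which the siRNA targets, and AL133338.1, at 22.3% of the siScr level, which lay below vehicle (log2FC −1.04, and −0.86 without vehicle replicate 3). In all, 89 of the 177 inductions that were no longer called also differed from siScr cells with R1881 in the direct comparison, as did 172 of the 322 repressions. Of all 728 inductions, 179 were lower under dual knockdown in that comparison and 94 higher. Of all 811 repressions 212 were higher and 36 lower, where 12.7% of all genes were higher and 10.8% lower. The calls in siScr cells and that comparison use the same siScr libraries with R1881. Errors in those libraries enter both and can make changes look smaller under dual knockdown. Of the LNCaP-induced genes, called without C4-2 libraries, 170 were higher and 154 lower, and of the LNCaP-repressed genes 141 and 66. The genes named here were ranked by that comparison, so their size is a description.

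Other repressions were lost, and some turned. PMP22, a myelin and epithelial membrane protein, was 11.8, 10.5 and 15 CPM with vehicle, 2.02, 1.97 and 1.17 CPM in siScr cells with R1881 and 8.48, 9.09 and 9.86 CPM under dual knockdown, so that its log2FC against vehicle was −0.40 (adjusted p = 0.0937) where siScr cells had −2.79. BTN3A2, a butyrophilin, was 9.21, 9.2 and 11.2 CPM, 3.72, 3.84 and 3.81 CPM and 19.7, 20.6 and 19.2 CPM, called lower in siScr cells and higher under dual knockdown (log2FC 1.05, SE 0.12, adjusted p = 7.14e-06). SAMD9, an interferon-induced antiviral gene, was 1.91, 2.23 and 1.77 CPM, 0.82, 0.62 and 1.17 CPM and 4.76, 6.17 and 7.66 CPM. BTN3A2, SAMD9 and MUC3A, a membrane mucin (log2FC 1.21), were 3 of the 6 genes with opposite calls. TRIM47, a ubiquitin ligase, had a log2FC of 0.77 against vehicle (adjusted p = 0.0661) where siScr cells had −1.90.

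A further set was called against vehicle under dual knockdown and not in siScr cells with R1881. Of the 430 genes called higher against vehicle under dual knockdown alone, 140 were also called higher against siScr cells with R1881 (2.50% of all genes). Of 459 called lower, 103 were also called lower (1.44% of all genes). Both calls use the same knockdown libraries, and genes called in siScr cells were left out. That choice favours a direct call, so these counts are a description only. GSN, the actin-severing protein gelsolin, was 5.23, 6.52 and 8.26 CPM with vehicle, 10.2, 8.91 and 10.1 CPM in siScr cells with R1881 and 33.9, 27.7 and 27.9 CPM under dual knockdown (log2FC 2.26, SE 0.15, adjusted p = 3.04e-08). CCDC88A, the actin-binding protein girdin, was 9.42, 11.1 and 7.96 CPM, 18.9, 15.8 and 16.8 CPM and 40.3, 48.9 and 51.9 CPM (log2FC 2.25, SE 0.14, adjusted p = 1.09e-08). In both, the knockdown libraries lay above the other 6. The genes named in this set were chosen by these 2 calls and by no overlap with vehicle. Their separation and p-values are therefore a description only. TSPAN8, a tetraspanin of epithelial tumours, went from 3 counts with vehicle to 3.93, 3.53 and 3.96 CPM, a ratio of 50.9 (95% interval 17.2 to 249), and the low genes OSBPL7 and C7orf31 had a log2FC of 2.34 and 2.31. Among falls, beside KDM1A, PLA2G7, the phospholipase of platelet-activating factor, was 1.86, 2.91 and 3.24 CPM, 2.73, 2.43 and 2.39 CPM and 0.681, 0.386 and 0.691 CPM (log2FC −2.11, SE 0.33, adjusted p = 0.000128), and GGT6, AP001528.2 and AC110597.1 had a log2FC of −2.37, −3.33 and −3.31.

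The change from vehicle to dual knockdown with R1881 was also set against the same change in LNCaP, as an interaction fitted in all 18 libraries and 18684 genes. It was higher in C4-2 for 728 genes (3.90%) and lower for 643 (3.44%). In LNCaP, KDM1A had a log2FC of −1.18 and KDM7A of −0.37 against vehicle, both smaller falls than in C4-2. These values hold the hormone and the siRNA together, so the depth of the knockdown alone was not compared between the lines. KLK2 rose less in C4-2 than in LNCaP (difference of log2FC −1.74, adjusted p = 1.83e-09), whereas the difference for KLK3 was −0.08 (adjusted p = 0.714). The repression of DDC and CAMK2N1 was smaller in C4-2, by 2.92 and 2.18 on the log2 scale (adjusted p = 2.3e-14 and 4.13e-11). The treatments were the same in both lines. In siScr cells, with no knockdown, the LNCaP log2FC with R1881 was 4.952 for KLK2, −3.948 for DDC and −4.345 for CAMK2N1. Each was a larger change than in siScr C4-2 cells, so differences in the same direction were present without knockdown. The part of the siRNA in this interaction was not tested, and in that part knockdown depth and cell line cannot be told apart.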

How the data were processed

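RNA Seq libraries of C4-2 and LNCaP cells were assigned to groups by their titles. The authors trimmed reads with TrimGalore, aligned them to GRCh38 with STAR and counted reads per Ensembl gene with FeatureCounts 1.5.0. The deposited counts are whole numbers without normalisation. Per the file headers, counting ran with neither a strand option nor an option for reads mapping to several places, so overlapping genes and close paralogs are uncertain. Of 60675 genes, 43853 had a count. Symbols and positions came from a GENCODE annotation of GRCh38, and promoters from RefSeq.

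The 9 C4-2 libraries were fitted together in edgeR 4.0.16 (limma 3.58.1, R 4.3.3) with TMM factors, filterByExpr (minimum count 10, minimum total 15) and the 2-sided quasi-likelihood F-test. The p-values of all genes tested were adjusted by Benjamini and Hochberg's method. A gene was called where its adjusted p was under 0.05 and its log2FC was 1 or more in size. For the direct comparison of knockdown with siScr, both with R1881, results by adjusted p alone were added after seeing the data. LNCaP libraries were fitted apart, and all 18 libraries for the interaction. DESeq2 1.42.0 was an alternative, and other steps used Python 3.11.15. Ratios to a group without counts used 3 counts as its floor, and intervals (95%, exact) cover counting error only. Named genes were KDM1A and KDM7A, members of the gene lists, and the largest changes under fixed rules: 8 rises and 8 falls against vehicle, 5 each way from the LNCaP lists, 5 each way lost or gained under knockdown, and 3 each way of the interaction, with a mean of at least 1 CPM. The rises and falls against vehicle and the genes gained under knockdown were limited to those whose knockdown and vehicle libraries did not overlap. Some listed genes are counted with their lists and not reported by name here. The contrast, the members and the lists were chosen with earlier results of these data known.

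The test was tested on simulated data in the contrast of dual knockdown against vehicle. It recovered 83 of 96 tested genes with a log2FC of 1.5 and 98 of 98 with 3, of 16802 genes, and called 7 unchanged genes. Alternatives were RLE factors, the Wald test of DESeq2, counts thinned to the depth of the smallest library, a fit of the compared groups only, a replicate block, glmTreat, calls by adjusted p with no fold threshold, a minimum of 10 counts in each library, an unfiltered table, and the removal of single libraries. Leaving out both vehicle replicate 3 and knockdown replicate 1, which lay farthest from their groups, was added after seeing the data.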

Additional observations from a re-analysis of the deposited data

Results flagged for a closer look

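The change from vehicle to dual knockdown with R1881 differed between C4-2 and LNCaP, by edgeR's interaction test with an absolute difference of at least 1 in log2FC, for 728 genes in the higher and 643 in the lower direction. Values below are the log2FC in C4-2 minus that in LNCaP, and they hold any difference in the R1881 response of siScr cells. The part of the siRNA in them was not tested, and in that part knockdown depth and cell line cannot be told apart. Among listed genes that respond to androgen, the value was lower in C4-2 for UGT2B28 (−2.86), GNMT (−2.56), HPGD (−2.43), UGT2B7 (−2.30), ABCC4 (−2.11), UGT2B11 (−1.80), KLK2 (−1.74), MSMB (−1.60), SMS (−1.45) and CENPN (−1.36). It was also lower for SORD (−1.33), NCAPD3 (−1.21), KLK15 (−1.14) and ACPP (−1.13). It was higher in C4-2 for SLC1A3 (1.36), SAT1 (1.58), BCHE (1.69), TMPRSS11E (1.79), PEG3 (2.02), CAMK2N1 (2.18) and DDC (2.92).

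Genes named because R1881 moved them most in LNCaP also differed, and that choice favours large LNCaP changes. They were PLA2G4E (−5.00), CCDC141 (−4.46), STEAP4 (−2.94), CBLN2 (3.13), SLITRK3 (4.59), SI (4.62) and KCNJ3 (5.30). Among called genes with a mean of at least 1 CPM, the largest differences were KRT6B (−11.15), CXCL10 (−7.16) and KRT6C (−5.04) in the lower and AKR1B1 (6.29), CNTN5 (6.39) and OPRK1 (7.17) in the higher direction. KRT6B, CXCL10, CNTN5 and OPRK1 had too few counts in C4-2 to be tested there, so their fitted values depend on the prior count. Some of these results were lost without 1 library or another. The result for CXCL10 was lost in 8 of the 12 fits that left out a library (adjusted p = 0.0531 to 0.962, the last without C4-2 vehicle replicate 3, where the difference was −4.98), and that for UGT2B7 in 9 of 12 (0.0716 to 0.128). KRT6B lost it without C4-2 vehicle replicate 1 (−7.33, adjusted p = 1.0), as did MSMB (−1.34, 0.0648), and STEAP4 without C4-2 vehicle replicate 2 (−2.61, 0.0709), as did KLK15 by its size (−0.98, 0.0109). SLC1A3 lost it without LNCaP vehicle replicate 2 (1.16, 0.0571) or 3 (1.14, 0.0518).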

How the results depend on the processing

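Counts of genes depended on the rule for a call and on low counts, and the standing shares less so. Across all alternatives, 69.5% to 77.2% of the R1881-induced genes of siScr C4-2 cells also stood under dual knockdown (75.7% as reported) and 46.8% to 66.9% of the repressed genes (60.3%). By adjusted p alone, with no fold threshold, the counts were 3640 higher and 3220 lower under dual knockdown, 2902 and 2669 with R1881 in siScr cells, 2112 and 1721 standing, and 4799 for the interaction with LNCaP. With at least 10 counts in every library they were 422 and 471, 295 and 393, 219 and 221, and 642, with 210 LNCaP-induced and 169 LNCaP-repressed genes called, since fewer genes were tested. Thinned to the smallest library they were 456 and 303, 342 and 218, 257 and 102, and 344, with 242 and 98 LNCaP genes. With glmTreat against a fold change they were 461 and 245, 366 and 224, 276 and 127, and 284, with 275 and 109. Without a filter on low counts, R1881 lowered 1277 genes in siScr cells, of which 854 stood.

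Leaving out each library in turn gave 922 to 1032 genes higher and 829 to 1032 lower under dual knockdown, 667 to 753 and 671 to 844 with R1881 in siScr cells, 499 to 559 and 405 to 519 standing, 395 to 417 and 266 to 321 of the LNCaP lists, and 1088 to 1626 for the interaction. Without vehicle replicate 3, 930 of the genes called higher and 806 of those called lower were shared with the counts reported. With a replicate block there were 963 higher and 904 lower genes, 714 and 748 in siScr cells, 534 and 434 standing, 404 and 284 of the LNCaP lists and 1355 for the interaction. Same-numbered libraries correlated in their deviations from the group means at 0.162, 0.071 and 0.089 between vehicle and knockdown, each the highest of its row, at −0.039, 0.089 and −0.026 between vehicle and siScr with R1881, and at 0.059, 0.034 and 0.052 between siScr with R1881 and knockdown, where other numbers correlated more. These values were mostly under 0.1, so the numbers were not taken to pair the libraries and the reported fits have no block. In the direct comparison with siScr cells, judged by adjusted p alone, 20 of 151 named genes lost and 7 gained their result without 1 library or another. Values turned direction for KLK15 against vehicle (−0.44, adjusted p = 0.607), AZGP1 in the interaction (0.41, 0.732) and SLC1A3 in the direct comparison (−0.027, 0.986), all in thinned counts, and for MTCO3P12 against vehicle (0.14, 0.849) without both libraries far from their groups. The cause of these turns was not tested. Without scaling factors the median log2FC of all genes was −0.149 in both contrasts with vehicle, against −0.014 and −0.018 with TMM.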

Other observations

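None of 20 genes for DNA replication and mitosis was called against vehicle in either condition, but at an adjusted p under 0.05 16 were lower with R1881 in siScr cells and 5 under dual knockdown (15.7% and 19.0% of all genes), with median log2FC of −0.37 and −0.16 (−0.02 and −0.01 for all genes). In the direct comparison 10 were higher under dual knockdown and none lower at that adjusted p (12.7% and 10.8% of all genes), among them PLK1, a mitotic kinase, which was 67.5, 58.9 and 57.8 CPM with vehicle, 38.1, 43 and 36 CPM in siScr cells with R1881 and 67, 68.1 and 63.4 CPM under dual knockdown (direct log2FC 0.76, adjusted p = 5.21e-05). Of the licensing helicase, MCM2 and MCM3 were still lower than vehicle (log2FC −0.53 and −0.70). Of 16 p53 targets, 4 were called lower under dual knockdown and 1 higher (5.59% and 5.78% of all genes), against none and 1 in siScr cells (4.78% and 4.29%). BTG2, an antiproliferative gene, was 39, 44.3 and 45.4 CPM with vehicle, 31.6, 29.4 and 27.1 CPM in siScr cells with R1881 and 12.7, 11.5 and 11.9 CPM under dual knockdown, and the stress gene GADD45A was 31.3, 35.1 and 32.4, 16, 16.9 and 17 and 9.53, 8.43 and 10 CPM. ZMAT3 and FAS were called lower (log2FC −1.11 and −1.30) and GDF15 higher (1.05, and 0.75 without knockdown replicate 1), while CDKN1A (0.22) and MDM2 (0.04), commonly used to read p53 activity, did not pass the test (adjusted p = 0.0835 and 0.739).

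None of 17 interferon-stimulated genes was called by edgeR under dual knockdown, where 2 were higher and 3 lower by adjusted p alone (21.5% and 19.0% of all genes), and 5 were called lower with R1881 in siScr cells (4.78% of all genes). IFIT3 was 1.81, 2.69 and 3.54 CPM with vehicle, 0.656, 0.733 and 0.675 CPM in siScr cells with R1881 and 2.46, 1.98 and 2.39 CPM under dual knockdown, and OAS3 was 28.7, 26.6 and 32.2, 11, 12.4 and 12.6 and 20.3, 24.5 and 20.4 CPM. In the direct comparison 5 of the 17 were higher and none lower by adjusted p alone (12.7% and 10.8% of all genes). Of 16 genes of the unfolded protein response and protein folding in the endoplasmic reticulum, 3 were called higher and none lower, and 13 passed an adjusted p of 0.05 in the higher direction (5.78% and 21.5% of all genes were called higher and passed it), with a median log2FC of 0.36 (0.25 in siScr cells). The sensor ERN1 and the factor CREB3L4 had a log2FC of 1.11 and 1.04, and DNAJB9, a co-chaperone, was 20.6, 21.5 and 25.1 CPM with vehicle, 40.3, 40 and 39.9 CPM in siScr cells with R1881 and 54.5, 53.6 and 59.5 CPM under dual knockdown.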
